A study of Mus musculus with 3 samples.

Results

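Immediate early and stress genes are switched on within minutes of a stimulus or an injury to the cell, and 10 of them were followed across 3 single-cell libraries: Fos, Fosb, Jun, Junb, Egr1, Ier2, Dusp1, Atf3, Hspa1a and Hspa1b. They were picked by name as immediate early and stress genes, and Dusp1 was added because of its values in these data, so their levels are given as a description. They make up 10 of the 27998 genes counted. All 10 had at least 1 unique molecular identifier (UMI, the tag that marks 1 captured RNA molecule) in each library.

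The mice were 10 weeks old and had received a burn of the back together with a cut of the Achilles tendon, an injury that leads to bone formation in soft tissue. At day 3, unsorted cells came from the marrow of the long bones, from blood and from the injured tendon, and each tissue gave 1 library. The study's methods name male C57BL/6J animals, without saying how many went into a library. The 3 suspensions were made differently. Marrow was flushed out and its red cells were lysed. Blood went over a Ficoll gradient, from which mononucleated cells were collected before red cell lysis. Blood neutrophil-like cells below are therefore those found in this fraction, not a sample of all blood neutrophils. Only the tendon tissue was minced and held in collagenase and dispase at 37 °C. Tissue, preparation and library therefore cannot be told apart in any difference between the libraries.

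Immediate early genes need no new protein for their transcription: kinases that are activated by growth factors, cytokines, adhesion or damage act on transcription factors already bound at these genes. Fos, Fosb, Jun, Junb and Atf3 encode leucine zipper proteins that pair into the AP-1 family of transcription factors, and Egr1 encodes a zinc finger transcription factor. Ier2 encodes a small nuclear protein of the same early wave. Dusp1 encodes a phosphatase that switches MAP kinases off again. Hspa1a and Hspa1b encode the inducible HSP70 chaperone and are driven by heat shock factor when proteins unfold. Enzymatic dissociation at 37 °C is a known inducer of this programme, which makes its level in any digested tissue sensitive to preparation.

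Promoter sequences from RefSeq (GRCm38.p6) were found for 8 of the 10 genes, all but Egr1 and Ier2. The 150 bases upstream of the start are shown for Fos and Fosb, because their levels parted in neutrophils, for Dusp1, because it was already high in blood, and for Hspa1a and Hspa1b, because they are near copies. Each stretch reads 5′ to 3′ and ends 1 base before the start of the transcript. Capitals mark TGACG on either strand, the core of the cyclic AMP response element TGACGTCA, or GAANNTTC, a facing pair of heat shock units.
Fos (chr12:85473740-85473889, plus strand): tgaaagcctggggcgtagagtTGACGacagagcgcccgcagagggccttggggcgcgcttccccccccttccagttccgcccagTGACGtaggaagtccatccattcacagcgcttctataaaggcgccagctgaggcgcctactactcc
Fosb (chr7:19310046-19310195, minus strand): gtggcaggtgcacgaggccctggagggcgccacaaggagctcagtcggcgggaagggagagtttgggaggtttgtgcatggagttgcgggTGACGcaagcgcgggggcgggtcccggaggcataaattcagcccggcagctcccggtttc
Dusp1 (chr17:26508473-26508622, minus strand): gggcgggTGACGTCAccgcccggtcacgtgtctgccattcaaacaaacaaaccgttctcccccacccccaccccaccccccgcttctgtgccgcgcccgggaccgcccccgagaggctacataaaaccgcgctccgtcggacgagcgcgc
Hspa1a (chr17:34972157-34972306, minus strand): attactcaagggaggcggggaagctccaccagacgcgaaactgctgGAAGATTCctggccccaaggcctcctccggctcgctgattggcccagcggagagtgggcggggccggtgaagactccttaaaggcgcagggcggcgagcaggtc
Hspa1b (chr17:34959239-34959388, minus strand): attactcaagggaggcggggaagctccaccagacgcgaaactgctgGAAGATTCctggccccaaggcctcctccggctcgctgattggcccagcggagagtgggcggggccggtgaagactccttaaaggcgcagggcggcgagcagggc

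TGACG was found in the 250 upstream bases of 5 of the 8 genes, namely Fos, Fosb, Junb, Dusp1 and Atf3, and in 17.8% of 32851 promoters of that length. The full TGACGTCA, which contains that core, was found upstream of Dusp1 alone and in 1.55% of all promoters. GAANNTTC was found upstream of Hspa1a, Hspa1b and Jun and in 6.69% of all promoters. The AP-1 site TGANTCA (6.75% of all promoters) and the CArG box bound by serum response factor (1.47%) had no match in these windows of the 8 genes. The upstream bases of Hspa1a and Hspa1b were the same at 247 of 250 positions. Over whole transcripts 58.8% of the 50-base windows of Hspa1a also occurred in Hspa1b, but none did in the last 500 bases, the end that a 3′ library reads. Reads from the shared part, if any were counted, cannot be assigned to either copy with certainty.

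The marrow, blood and tendon libraries held 1855, 2241 and 5629 cells with 49580625, 22542581 and 90621052 UMIs. Cells were clustered in each library with the 10 genes and 6 related lists left out of the variable features, and clusters were named from marker genes. After filters 1813, 2146 and 4780 cells remained, and 23 groups of at least 20 cells carried a name. Neutrophil-like cells (857 in marrow, 398 in blood, 560 in tendon) and monocyte/macrophage-like cells (157, 445 and 2438) were found in all 3 tissues. The markers went with the tissue labels: T-like cells were a class of blood, granulocyte progenitor-like cells of marrow, and mesenchymal-like, endothelial-like, mural-like, keratinocyte-like and Schwann-like cells of tendon, and Col1a1, a collagen of connective tissue, reached 5203 CPM (UMIs of a gene per 1000000 UMIs of its group) in mesenchymal-like cells and 0 in each blood class. Between pairs of libraries 9 cell barcodes were shared (6, 1 and 2), and leaving out those shared with tendon did not change the counts of genes given below for neutrophil-like and monocyte/macrophage-like cells.

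Levels are CPM with exact Poisson 95% intervals, and ratios have exact binomial intervals. These intervals describe the counting of UMIs and nothing else. A test between tissues was not possible, as each is 1 library, and a difference beyond its interval is a difference between these libraries. A gene was counted as higher or lower when its level differed by at least 2-fold and it had at least 20 UMIs over both groups. The counts include Dusp1 wherever it had enough UMIs, although it was picked for its values in these data. One UMI stands for 1 molecule whatever the length of the gene.

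Nearly the whole set was highest in the tendon library, and in almost every cell type there. For Fosb, Junb, Egr1 and Atf3, all 9 tendon groups were above all 14 groups of marrow and blood. The same held for 8 of 9 tendon groups for Fos and Hspa1a, and for 7 of 9 for Jun and Hspa1b. These counts order the values alone, and some intervals at the boundary overlapped. Junb of keratinocyte-like cells (621, 604 to 639) overlapped blood neutrophil-like cells (612, 588 to 637). Egr1 of tendon B-like cells (157 to 380) overlapped blood basophil/mast-like cells (71.9 to 161). Hspa1a of tendon B-like cells rests on 1 UMI. Hspa1b had 3.57 (1.54 to 7.03) in tendon neutrophil-like and 3.44 in blood monocyte/macrophage-like cells. Ier2 and Dusp1 were the exceptions, with 1 tendon group above all others. The 10 genes together took 3591 to 6222 CPM in the tendon groups, 304 to 1800 in the blood groups and 112 to 476 in the marrow groups. In the order of the 23 groups, neighbours had overlapping intervals in 11 of 22 pairs for Junb, 13 for Fos, 15 for Fosb and 16 for Jun. It was 17 for Dusp1, 18 for Egr1, Ier2 and Atf3, and 21 for Hspa1a and Hspa1b. The fine order is thus only partly resolved for the other genes and not resolved for the chaperones.

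**Figure D1:**
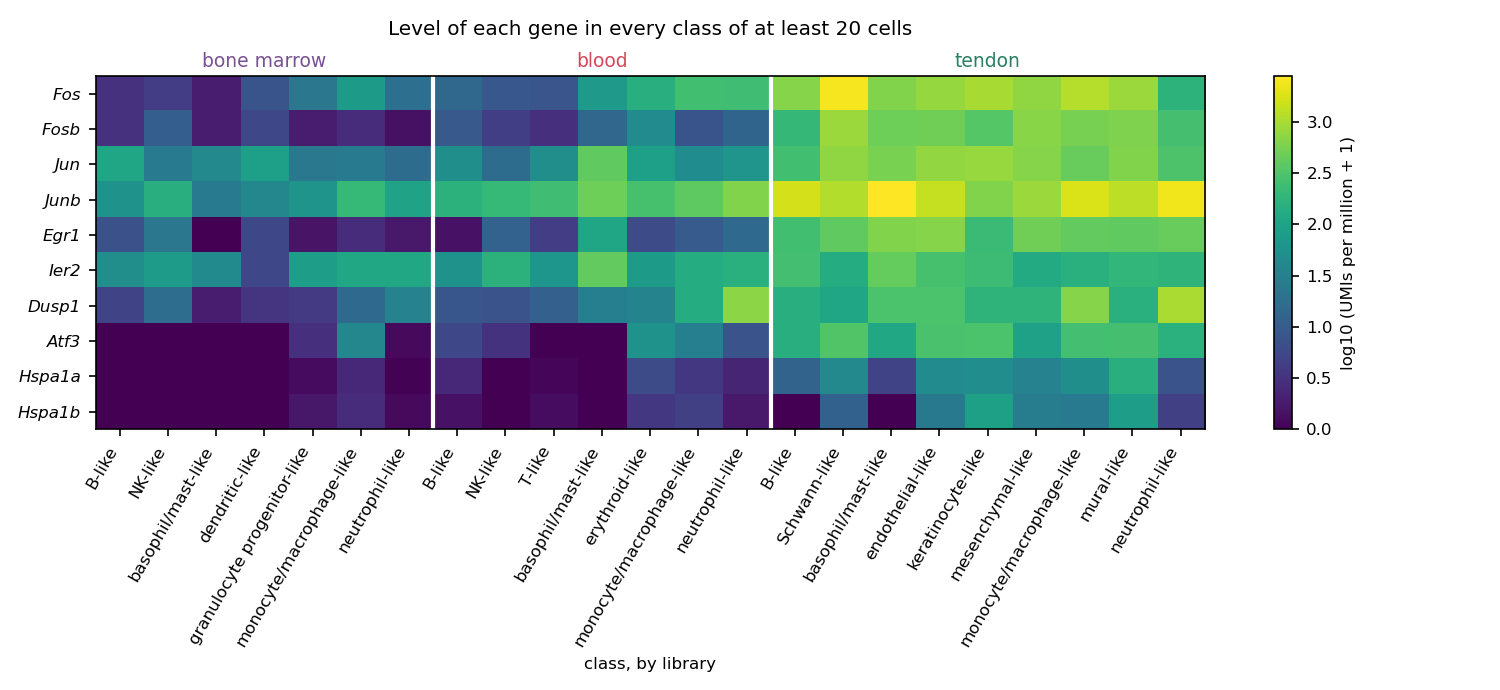
Level of each gene (rows) as log10 of CPM plus 1 (colour) in the 23 groups of class and library (columns), with 1 library per tissue. The tendon columns are bright across the AP-1 genes and Egr1, Ier2 has a similar shade in most columns, and Dusp1 is bright in the neutrophil-like cells of blood as well as of tendon.

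In neutrophil-like cells the tendon library stood above blood for most of the set but not for Fos. Of the 9 genes with enough UMIs, 6 were at least 2-fold higher in tendon than blood and 0 were at least 2-fold lower, where 12.1% of 7480 genes were higher and 22.9% lower. The median log2 ratio of these 9 genes was 2.31, beside -0.29 over all genes. Hspa1a was among the 6 with only 15 and 5 UMIs, and the lower end of its log2 ratio of 2.43 (0.89 to 4.24) was below 2-fold. Hspa1b, with 8 and 3 UMIs, had too few to be counted.

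Fos, the classic AP-1 partner of Jun, had 17.0 CPM in marrow neutrophil-like cells, 247 in blood (95% interval, 232 to 263) and 169 in tendon (153 to 187). It was thus lower in tendon than in blood, with a log2 ratio of -0.55 (-0.72 to -0.37). Fosb, which encodes the nearest relative of the Fos protein, went from 0.417 in marrow and 11.9 in blood to 267 in tendon, 4.48 on the log2 scale above blood (4.06 to 4.94). Of all Fos and Fosb UMIs, Fos made up 97.6% (95.1 to 99.03) in marrow, 95.4% (93.9 to 96.6) in blood and 38.9% (35.8 to 42.0) in tendon neutrophil-like cells. No other group with at least 20 UMIs of the pair had a Fos share below 50%.

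The lower Fos of the tendon depended on how cells were assigned. Without removal of doublets, droplets scored as holding 2 cells, the log2 ratio of Fos was 0.20, and it was also 0.20 when each cell was named by its own markers. In the other direction it was -0.91 when only clusters with more late than middle maturation markers were compared. The ratio of Fosb lay between 3.97 and 4.74 over all settings. Monocyte/macrophage-like cells of the tendon held 1139 CPM of Fos, and the part of mixed droplets in the neutrophil value was not tested.

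Junb, a further Jun subunit of AP-1, had 94.9, 612 and 2337 CPM in marrow, blood and tendon neutrophil-like cells. Jun, the partner of the Fos proteins, had 15.5, 61.7 and 305. Atf3, a stress-induced member of the wider family, had 0.238, 6.71 and 158, the marrow value resting on 4 UMIs. For all 3 genes the order was the same, and tendon was above blood by log2 ratios of 1.93 (1.86 to 2.002) for Junb, 2.31 (2.09 to 2.52) for Jun and 4.56 (3.99 to 5.18) for Atf3.

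Egr1 had the largest ratio of tendon to blood in neutrophil-like cells, with 0.715 CPM in marrow, 14.2 in blood and 442 in tendon, 31.2-fold above blood. Its log2 ratio of 4.96 (4.58 to 5.37) overlapped those of Atf3 and Fosb, so their order is not resolved. Ier2 differed least, with 110 in marrow, 151 in blood and 174 in tendon, and its ratio of tendon to blood was 1.15-fold. Dusp1 took its main step earlier. It had 32.3 CPM in marrow, 693 (667 to 719) in blood and 1031 (990 to 1074) in tendon, so that blood was 21.5-fold above marrow (log2 ratio 4.42) and tendon 1.49-fold above blood (0.57). Among late-stage clusters alone these log2 ratios were 2.97 and 0.18. Hspa1a was scarce, with 1, 5 and 15 UMIs in the 3 groups.

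Against marrow, 7 of 8 countable genes were at least 2-fold higher in tendon neutrophil-like cells (19.5% of 8909 genes were, and 27% were lower) and 7 of 8 were in blood neutrophil-like cells (17.4% of 9126, with 9.18% lower). None of the 10 was at least 2-fold lower in either. Ier2 was the gene below the fold in both. Fosb (598 and 7 UMIs in tendon and marrow), Egr1 (992 and 12) and Atf3 (355 and 4) reached the minimum through the tendon UMIs. In the comparison of blood to marrow, the same genes reached it through the blood UMIs, Atf3 with 27 and 4. Blood was above marrow by 14.6-fold for Fos, 28.6-fold for Fosb (48 against 7 UMIs), 6.45-fold for Junb, 3.98-fold for Jun and 19.8-fold for Egr1 (57 against 12 UMIs). Neither of these suspensions was digested, but they were prepared differently, and the part of preparation was not tested. The marrow class includes immature clusters, and among late-stage clusters alone the log2 ratio of blood to marrow was 2.79 in place of 3.86 for Fos, 1.44 in place of 2.69 for Junb and 1.78 in place of 1.99 for Jun. These comparisons share their libraries with the one of tendon to blood. The tendon neutrophil-like cells were shallower, with a median of 3492 UMIs per cell, than those of blood (8637) and marrow (18783), while the median mitochondrial share was 0.677%, 0.715% and 0.705%.

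**Figure D2:**
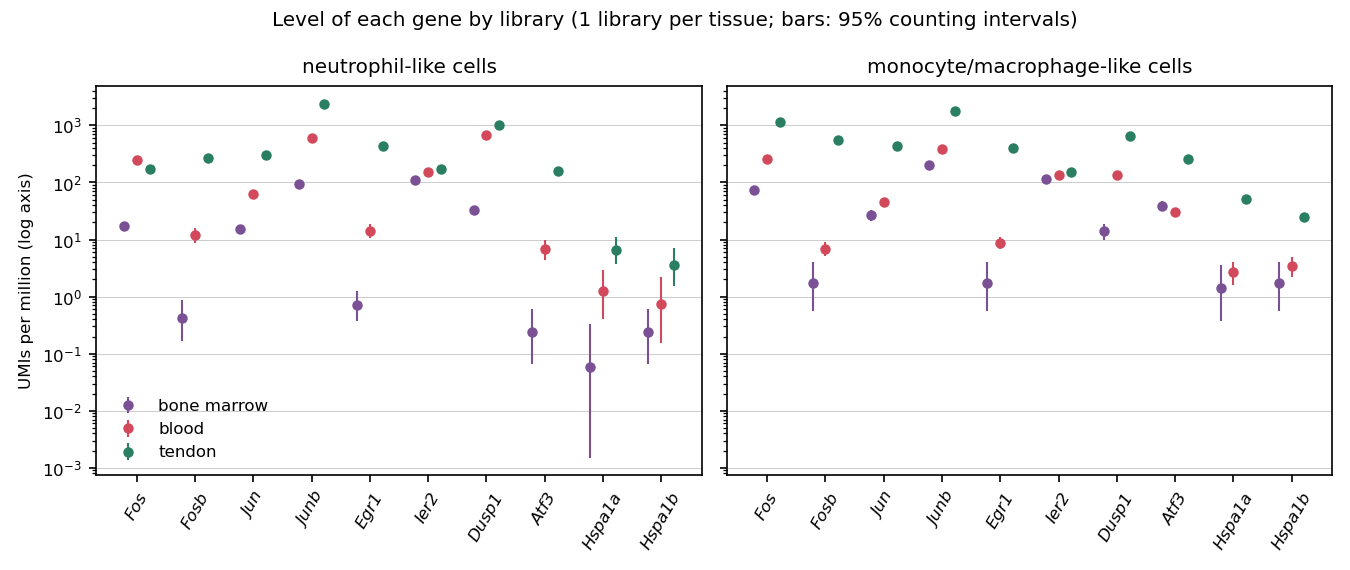
CPM (log axis) of each gene in neutrophil-like and monocyte/macrophage-like cells of the 3 libraries, with 95% counting intervals as bars. Tendon (green) is the highest point for each gene apart from Fos in neutrophil-like cells, where blood (red) is higher, and the 3 points of Ier2 lie close together in both classes.

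In monocyte/macrophage-like cells Fos was no exception. All 10 genes had enough UMIs, and 9 were at least 2-fold higher in tendon than blood (18.5% of 11856 genes were, and 13.4% were lower) and 9 higher than in marrow (21.7% of 11612, with 14.3% lower). None was at least 2-fold lower in either. Against marrow, Fosb, Egr1 and Hspa1b (5 UMIs each in marrow) and Hspa1a (4) reached the minimum through the tendon UMIs. Ier2 was again the gene left, with 115, 134 and 154 CPM in marrow, blood and tendon. Between blood and marrow, 4 genes were at least 2-fold higher in blood (6.03% of 9792 genes were) and 0 lower (2.11%). The 4 were Fos, Fosb, Egr1 and Dusp1, the last picked for its values in these data. Fosb (52 and 5 UMIs in blood and marrow) and Egr1 (66 and 5) reached the minimum through the blood UMIs. With median-of-ratios factors the 4 became 7, beside 6.78% of all genes.

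Fos had 74.7, 253 and 1139 CPM in marrow, blood and tendon, so that blood monocyte/macrophage-like cells were at the level of blood neutrophil-like cells (253 and 247) but tendon cells were not (1139 and 169). Fosb had 1.74, 6.89 and 550, and its ratio of tendon to blood, 79.8-fold, was the widest of the set in this class. Junb had 201, 385 and 1801, and Jun had 26.5, 46.0 and 444. The AP-1 genes were ordered marrow, blood, tendon, except for Atf3, which had 38.7 (31.9 to 46.6) in marrow and 29.9 (26.2 to 34.1) in blood before 261 in tendon.

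Egr1 had 1.74, 8.74 and 410 CPM, a 46.9-fold ratio of tendon to blood, and Dusp1 had 14.0, 136 and 651, a 4.79-fold ratio. Dusp1 in blood monocyte/macrophage-like cells was thus at 136, against 693 in neutrophil-like cells of the same library. The chaperones were countable here, but with 4 and 5 UMIs in marrow and 20 and 26 in blood. Hspa1a had 1.40, 2.65 and 50.8 and Hspa1b had 1.74, 3.44 and 24.5, ratios of tendon to blood of 19.2-fold and 7.12-fold. Their log2 ratios of blood to marrow were 0.92 (-0.65 to 2.93) and 0.98 (-0.42 to 2.72), so blood and marrow are not resolved.

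The class holds other cells in tendon than in blood, so the comparison was repeated for clusters with Ccr2, the receptor that brings monocytes into tissue, among their 10 leading genes (157 marrow, 293 blood and 566 tendon cells). The counts stayed at 9, 9 and 4 genes (the last of 8 countable), beside 9.28%, 9.57% and 2.15% of all genes in the same comparisons. Tendon then exceeded blood by less on the log2 scale for Fos (1.25 in place of 2.17) and Egr1 (3.24 in place of 5.55). After Seurat integration it was larger for both, 4.84 and 6.95, but the cells compared were others. The name was then carried by 147 blood cells in place of 445. An integrated cluster of 1313 cells with Ms4a6c and F13a1 among its leading genes was left unnamed.

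Within the neutrophil lineage the genes differed with maturation. Clusters were placed by the share of late markers (Cxcr2, Csf3r, Mmp9, Retnlg, Il1b, Ccl6) in the summed levels of late and middle markers (Ltf, Camp, Ngp, Lcn2, Chil3, Cd177), which was 0.644% in the least and 85.9% in the most mature of the 6 marrow clusters. In these 6 clusters, in order of the late share, Fos had 3.93, 4.10, 9.05, 16.1, 29.8 and 69.1 CPM. Junb and Dusp1 followed the same course, Dusp1 being 24.98-fold (log2 ratio 4.64, 4.09 to 5.25) and Junb 13.1-fold higher in the most mature cluster than in the cluster with a late share of 3.44%. Ier2 was 1.34-fold higher between the same clusters. Fosb and Egr1 had 0 UMIs in the most mature marrow cluster, where a count of 0 allows up to 3 UMIs or 2.05 CPM.

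In blood too the cluster with a late share of 91.0% (336 cells) had 319 CPM of Fos, 773 of Junb and 908 of Dusp1 and the one with 39.9% (62 cells) had 84.4, 249 and 205. At like late shares some levels still differed between the tissues, though tendon was not always the highest. The late marker Il1b was among the 10 leading genes of both tendon clusters and of no marrow or blood neutrophil-like cluster. A like late share therefore need not mean a like stage, which was not tested. The most mature marrow cluster (85.9%) and the tendon cluster with the lower late share (84.8%) had 439 and 1781 CPM of Junb. They had 177 and 799 of Dusp1, and 0 and 339 of Egr1. The same tendon cluster was above the blood cluster with 91.0% for Junb (1781 and 773) and Egr1 (339 and 18.3). It was below that blood cluster for Fos (148 and 319) and for Dusp1 (799, 756 to 843, and 908, 873 to 944). Ier2 was alike in them (160 and 170). The other tendon cluster (93.4%, 204 cells), led by Il1b, Cxcl2, Ccl3 and Ccl4, had 3965 of Junb, 1713 of Dusp1 and 744 of Egr1. It also had the fewest UMIs per cell, with a median of 2638 against 4163. Without it, 5 of 8 countable genes were at least 2-fold higher in tendon than blood, as were 10.6% of all genes.

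**Figure D3:**
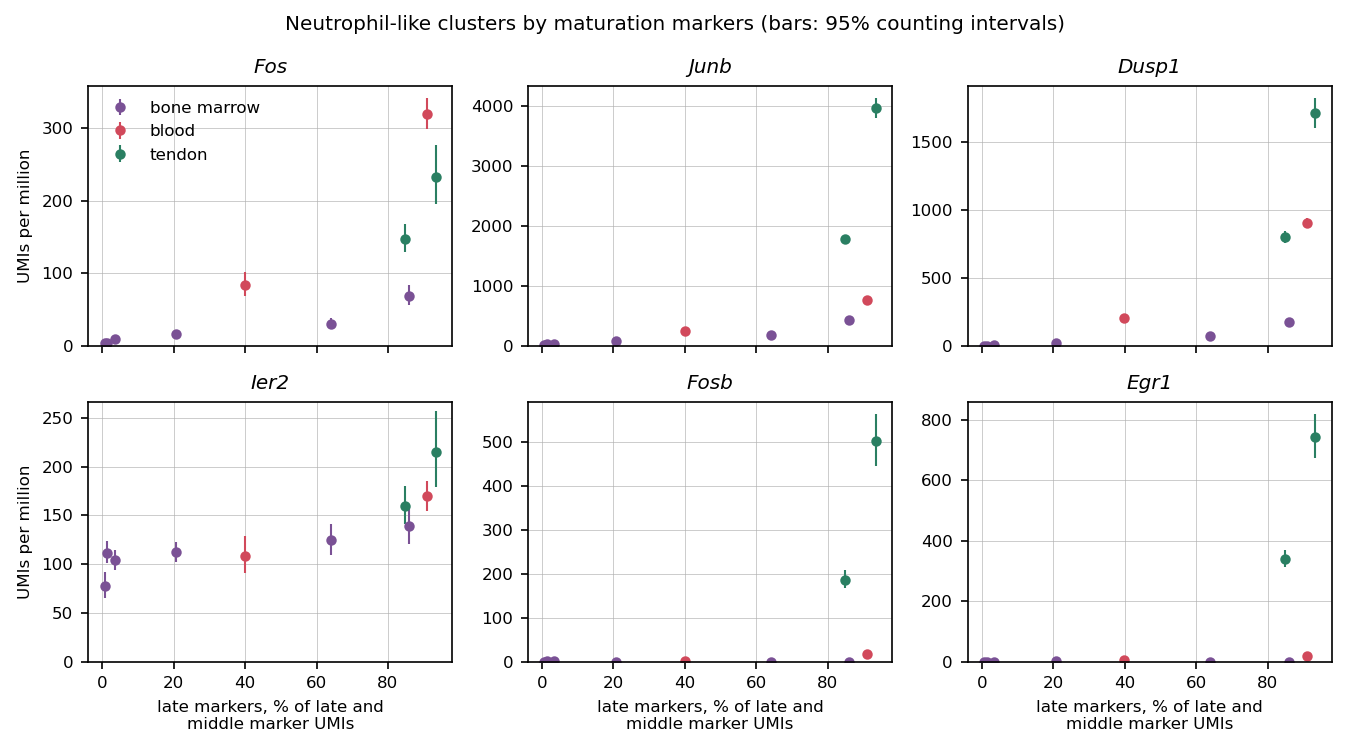
CPM of 6 genes in each neutrophil-like cluster (points, with 95% counting intervals) against the share of late maturation markers (percent). Fos, Junb and Dusp1 are higher at a high late share within marrow and within blood, Ier2 changes little, and Fosb and Egr1 are high in the tendon clusters alone.

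Inside the tendon library, monocyte/macrophage-like cells that went through the same digestion differed most in Egr1. Over 9 clusters Egr1 ranged 27.7-fold, from 47.1 CPM in the cluster led by Ccl6, Ms4a6c, Il1b and Ccr2 to 1307 in the one led by Ccl8, Mrc1 and Cd163, a scavenger receptor of tissue macrophages. That highest cluster held 26 cells. Hspa1a ranged 15.4-fold and Hspa1b 15.1-fold, with the same clusters lowest and highest and with 38 and 18 UMIs in the lowest. Atf3 ranged 9.93-fold, and its highest value, 663, was in a cluster led by complement genes, Apoe and the interferon-induced Rsad2. Junb ranged 1.99-fold, from 1196 to 2384.

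The larger of the 2 Ccl8 clusters (313 cells, led by Pf4, Ccl8 and C1qb) was 24.3-fold above the Ccr2 cluster (354 cells) for Egr1 and 10.8-fold for Hspa1a, 2.22-fold for Fos and 2.23-fold for Fosb, and 1.08-fold for Junb. These clusters were defined without the 10 genes. The larger Ccl8 cluster had a median of 14728 UMIs and a median mitochondrial share of 3.996%, and the Ccr2 cluster had 9857 UMIs and 3.73%. Across the whole class in tendon, cells with at least 5% mitochondrial UMIs had 650 CPM of Egr1 and those below 5% had 373, while Junb had 1571 and 1837.

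**Figure D4:**
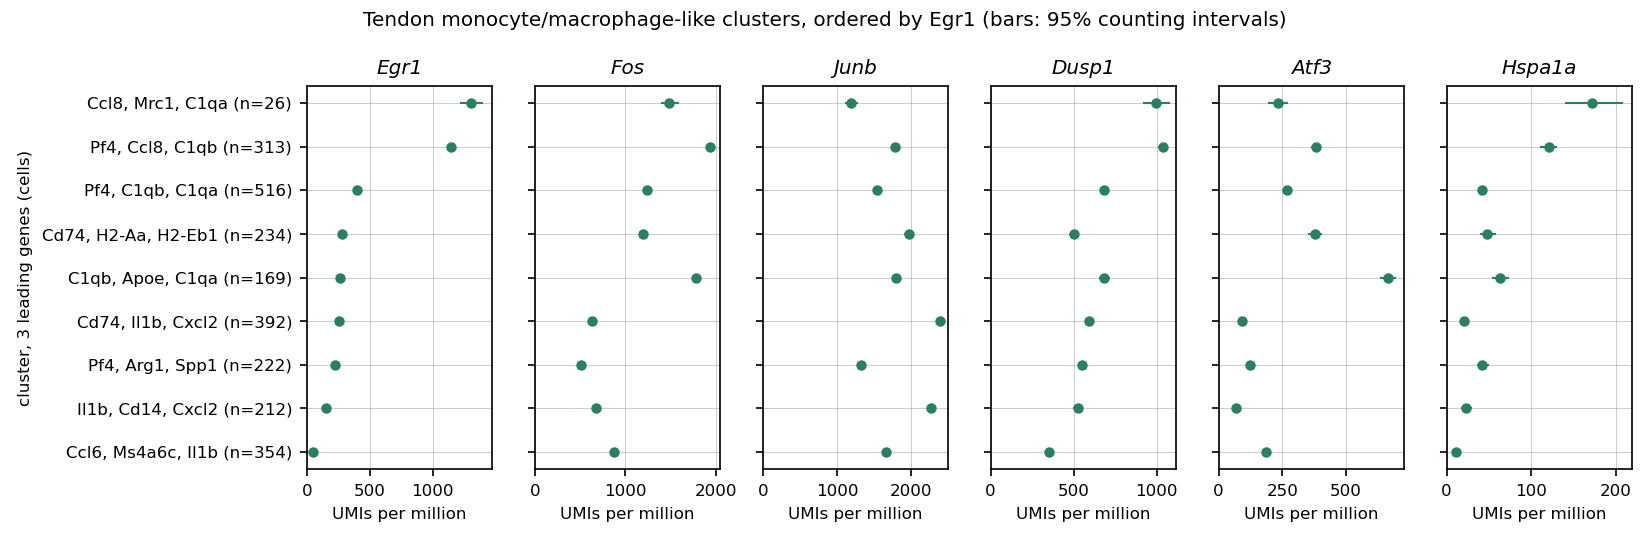
CPM of 6 genes in the 9 tendon monocyte/macrophage-like clusters, named by 3 leading genes and ordered by Egr1, with 95% counting intervals. Egr1 and Hspa1a are far to the right in the 2 uppermost clusters, Atf3 peaks in the cluster led by C1qb, Apoe and C1qa, and Junb is spread the least.

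The other tendon cells each carried the programme in their own proportions. Schwann-like cells, the glia of peripheral nerve, had the highest Fos (2476 CPM, 2364 to 2592) and Fosb (854) of any group, with 110 of Dusp1, the lowest value among the 9 tendon groups, where it overlapped B-like cells (148, 78.9 to 253). Endothelial-like cells had the highest Egr1 (657, 640 to 675), where it overlapped tendon basophil/mast-like cells (611, 516 to 717). Keratinocyte-like cells had the highest Jun (819, beside 774 in endothelial-like cells) with the lowest Junb of the 9 tendon groups (621). Mesenchymal-like cells had 741 of Fos, 675 of Fosb and 503 of Egr1 with 93.5 of Atf3, the lowest value among the 9 groups, where it overlapped basophil/mast-like cells (111, 73.4 to 162). Among their clusters the one led by Prg4, Thbs4, Comp and Fmod, genes of tendon and joint matrix, had 1818 of Fos. That was 3.41-fold above the largest cluster, which was also led by Prg4. The former held 39 cells with a median of 18872 UMIs, the latter 369 cells with 47664.

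Hspa1a was highest in mural-like cells, the contractile cells around vessels, with 149 CPM (136 to 163), against 50.8 in monocyte/macrophage-like cells, the next group. Hspa1b was highest in keratinocyte-like cells with 89.6 (83.1 to 96.6), where it overlapped mural-like cells (82.3, 72.4 to 93.2). Of the UMIs of both genes, Hspa1a made up 34.8% (31.9 to 37.7) in keratinocyte-like cells, 54.6% (52.1 to 57.1) in mesenchymal-like cells, 64.4% (60.7 to 68.0) in mural-like cells and 67.5% (65.5 to 69.4) in monocyte/macrophage-like cells. Of the tendon groups with at least 20 UMIs of the pair, the keratinocyte-like group was the one in which Hspa1b was the larger part.

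A small tendon cluster was below the 9 tendon groups for 7 of the 10 genes. It was named dendritic-like and led by Siglech, Cox6a2 and Ccr9, genes of plasmacytoid dendritic cells, and with 19 cells it was below the minimum and was singled out after its values were seen. It had 146 CPM of Fos (88.1 to 229), 46.2 of Fosb, 208 of Junb, 30.8 of Egr1 and 1 UMI of Dusp1. For Fosb, Jun, Junb, Egr1, Ier2, Dusp1 and Atf3 the upper end of its interval was below the lowest value of the 9 tendon groups. Fos overlapped the lowest group (169), and Hspa1a and Hspa1b had 0 UMIs, which allows up to 23.1 CPM and leaves them unresolved. The dendritic-like cells of marrow (38 cells), also led by Siglech, had 6.77 of Fos (3 UMIs), 4.51 of Fosb (2 UMIs) and 38.4 of Junb, below the tendon cluster.

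Among lymphoid cells the set was low outside the tendon. T-like cells of blood had 7.11 CPM of Fos, 1.97 of Fosb, 3.18 of Egr1 and 10.3 of Dusp1, with 243 of Junb. B-like cells had 2.08, 13.4 and 650 of Fos and 56.2, 161 and 1676 of Junb in marrow, blood and tendon. All 8 countable genes were at least 2-fold higher in tendon than blood B-like cells (14.1% of 7142 genes were, with 25.9% lower), and Ier2 among them was 4.66-fold higher. Against marrow, 5 of 5 were higher in tendon (8.71% of 3834 genes, with 31.9% lower). Fos (57 and 1 UMIs in tendon and marrow) and Egr1 (22 and 3) reached the minimum through the tendon UMIs. So did Egr1 against blood (22 and 1). From marrow to blood B-like cells, Fos and Junb were at least 2-fold higher (10.4% of 7750 genes) and Jun lower (17.4%), with 104 and 50.8 CPM. Fos rested on 1 UMI in marrow and 29 in blood. The marrow cluster had Vpreb3, Vpreb1 and the histone gene Hist1h1b among its leading genes, and the larger blood cluster H2-Aa, Ms4a1 and Fcmr. The class may thus hold other B-like cells in marrow than in blood. Of 3 countable genes in NK-like cells, Ier2 was 2.09-fold higher in blood than marrow (15% of 5774 genes, with 7.66% lower). The 23 marrow NK-like cells also had the T cell genes Cd3d and Cd3g among their leading genes. This marrow group may thus be mixed. Over the whole marrow library, 8 cells were NK-like and 11 T-like by their own markers, whatever their cluster. The tendon B-like values rest on 22 cells and mostly on few of them. Fos had UMIs in 4 cells, Egr1 in 5, Atf3 in 3 and Dusp1 in 2, against 19 for Junb. The 22 tendon cells also held 1197 CPM of the macrophage gene C1qb against 1.39 in blood B-like cells. The part of that RNA was not tested.

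Basophil/mast-like cells of blood had the highest Jun (407), Egr1 (110) and Ier2 (411) of any marrow or blood group, while those of marrow had 41.0 of Jun, 41.9 of Ier2 and no UMI of Egr1. Ier2 of the tendon group was 425, and its interval (347 to 515) overlapped that of blood (333 to 501). The tendon cluster was led by the mast cell proteases Mcpt4 and Cma1 together with Ccl5, Gzma and Gzmb, and NK was its second class by markers. The tendon group may thus be mixed. Over the whole tendon library, 11 cells were basophil/mast-like and 13 NK-like by their own markers. How many of them lay in this cluster was not counted. The clusters of blood and marrow held the basophil protease Mcpt8 among their leading genes. That of marrow also held Car1, Car2, Ctsg and Mpo, markers of other classes. The class is thus not the same cell in each tissue, and the counts are given side by side. In it 6 of 8 countable genes were at least 2-fold higher in tendon than blood (19.1% of 3309 genes, with 21% lower), 8 of 8 in tendon than marrow (13.9% of 6621, with 29.5% lower) and 4 of 4 in blood than marrow (18.1% of 6566, with 33.7% lower). Most reached the minimum against marrow through the tendon UMIs. In tendon and marrow Fos had 151 and 1 UMIs, Fosb 118 and 1, Egr1 148 and 0, Dusp1 71 and 1 and Atf3 27 and 0. Jun, Junb and Ier2 had 45, 29 and 46 in marrow. Egr1 had 26 UMIs in blood.

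Per cell, the libraries differed in how many of the genes were seen together. Each cell was thinned to 1000 UMIs, which left out 21 of the tendon, 3 of the blood and 6 of the marrow neutrophil-like cells. Of neutrophil-like cells, 73.0% (69.9 to 75.9) in marrow, 19.0% (15.2 to 23.2) in blood and 7.42% (5.35 to 9.97) in tendon had no UMI of the 10 genes. At least 4 of the genes were seen in 0 of 851 marrow cells, 4.30% (2.53 to 6.80) of blood cells and 23.6% (20.04 to 27.4) of tendon cells. Among monocyte/macrophage-like cells these shares were 0%, 0.451% and 36.1% (34.1 to 38.0).

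The shares of single genes did not all follow that order. Fos was seen in 23.3% (19.2 to 27.8) of thinned blood and 11.1% (8.60 to 14.1) of thinned tendon neutrophil-like cells, and in 73.4% and 29.1% at the cells' own depth, which differs between them. Egr1 was seen in 1.52% and 31.5%. Dusp1 was seen in 51.4% (46.3 to 56.4) and 50.8% (46.5 to 55.1), so the share of cells was alike while the level was 1.49-fold higher in tendon. Ier2 was seen in 14.9% and 15.96%. Free RNA can give UMIs to cells that do not express a gene. Egr1 was seen in 0.546% (0.149 to 1.39) of thinned blood T-like cells. These have a median of 8801 UMIs against 8637 and 3492 in blood and tendon neutrophil-like cells. That share is for the blood library alone, where Egr1 had 8.37 CPM over all kept cells, against 430 in the tendon library. The part of free RNA in the 31.5% of tendon cells was not tested.

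**Figure D5:**
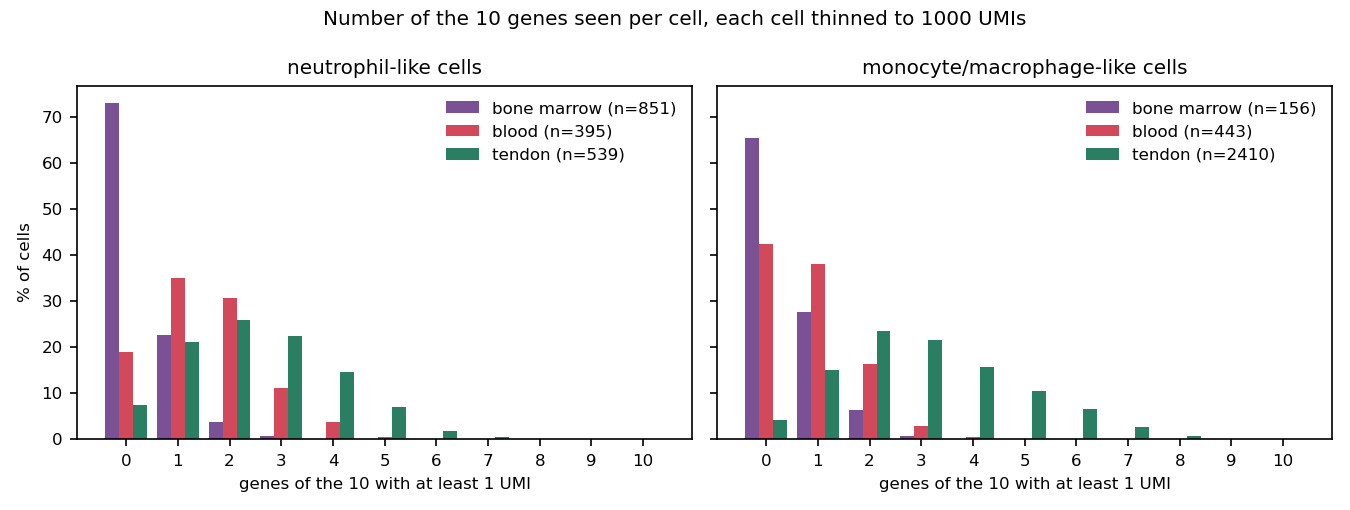
Percent of neutrophil-like and monocyte/macrophage-like cells by the number of the 10 genes with at least 1 UMI, after thinning each cell to 1000 UMIs. Most marrow cells are at 0, blood neutrophil-like cells are mostly at 1 or 2, and tendon cells reach further to the right in both classes.

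Across the cells of 1 group, how closely the genes went together differed by cell type. In tendon neutrophil-like cells (539 thinned cells of 1 library), Pearson correlations over 28 pairs of genes ran from 0.02 to 0.41, the highest being Junb with Dusp1 (0.41) and Fos with Fosb (0.39). In tendon monocyte/macrophage-like cells 45 pairs ran from -0.03 to 0.33. In endothelial-like cells the median over 28 pairs was 0.39, with Jun and Egr1 at 0.65. Among 61 Schwann-like cells Fos and Junb were at 0.73 and Fosb and Junb at 0.55, over 6 pairs from 0.19 to 0.73. These values come from sparse counts and are given as a description.

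Other genes of the response were taken from 6 lists of 91 genes. Between tendon and blood, 12.1% of all genes were at least 2-fold higher and 22.9% lower in neutrophil-like cells, with a median log2 ratio of -0.29, and 18.5% and 13.4% in monocyte/macrophage-like cells, with a median of -0.02. The counts of each list are read against these shares. In tendon against blood neutrophil-like cells, 7 of 10 countable other AP-1 family genes were at least 2-fold higher and 0 lower, with a median log2 ratio of 1.66. Maff, a small Maf protein, had 2.49 and 103 CPM in blood and tendon, Crem, a cyclic AMP-responsive factor, 8.20 and 129, and Atf4, the factor of the integrated stress response, 25.4 and 193. Fosl1 had 1 and 56 UMIs. In monocyte/macrophage-like cells 8 of 11 were higher and 1 lower, with Maff at 0.795 and 66.1, Crem at 5.56 and 67.6, Atf4 at 45.6 and 236, and Fosl1 at 0 and 483 UMIs.

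Of the other immediate early genes, 15 of 24 were higher and 1 lower in neutrophil-like cells (median log2 ratio 1.21), and 17 of 26 were higher and 2 lower in monocyte/macrophage-like cells (1.66), beside 12.1% and 22.9%, and 18.5% and 13.4%, of all genes. Gadd45b, a growth arrest gene, had 36.3 and 1193 CPM in blood and tendon neutrophil-like cells, and Ppp1r15a, which reverses the block of translation under stress, 6.71 and 390. The nuclear receptors Nr4a3 and Nr4a2 had 0 and 1 UMIs in blood and 294 and 77 in tendon neutrophil-like cells. In monocyte/macrophage-like cells Nr4a3 had 1 UMI in blood and 50.7 CPM in tendon, Nr4a2 had 0.662 and 166, Cyr61 had 0 and 64 UMIs, and Ier3, an early gene of cell survival, had 23.7 and 2040 CPM, 86.1-fold higher in tendon.

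The MAP kinase feedback list held 5 of 7 higher and 0 lower genes in neutrophil-like cells and 7 of 11 higher and 1 lower in monocyte/macrophage-like cells, where 12.1% and 18.5% of all genes were higher. Dusp2, a nuclear MAP kinase phosphatase like Dusp1, had 0.994 and 226 CPM in blood and tendon neutrophil-like cells, so its blood level was near 0 while that of Dusp1 was 693. Dusp5, the phosphatase of ERK, had 10.2 and 174, Dusp16 had 26.1 and 188, and Spred1, a Ras pathway inhibitor, 1.99 and 9.36. In monocyte/macrophage-like cells Dusp2 had 9.01 and 220 and Dusp5 had 20.5 and 134, while Dusp4 and Dusp8 had 0 UMIs in blood and 91 and 34 in tendon. The list's median there was 2.32, and 1.502 with genes at 0 set at the bound that 3 UMIs allow.

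The heat shock list had 5 of 11 higher and 2 lower in neutrophil-like cells (median log2 ratio 0.41) and 6 of 15 higher and 0 lower in monocyte/macrophage-like cells (0.53). Of all genes 12.1% and 18.5% were higher, and the 2 lower genes are near the 22.9% of all genes that were lower in neutrophil-like cells. Hsp90aa1, the inducible HSP90, had 95.2 and 268 CPM in blood and tendon neutrophil-like cells and 170 and 580 in monocyte/macrophage-like cells. Dnaja1, an HSP70 partner, had 142 and 393 in neutrophil-like cells, where Serpinh1 had 0 and 24 UMIs and Chordc1 39 and 0. In monocyte/macrophage-like cells Bag3, another HSP70 partner, had 11.8 and 37.2 CPM, Hspb1 0.662 and 5.49, and Serpinh1 0 and 191 UMIs.

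The endoplasmic reticulum stress list had 4 of 10 higher and 2 lower genes in neutrophil-like cells (median log2 ratio -0.36) and 2 of 10 higher and 1 lower in monocyte/macrophage-like cells (0.23). The counts in the latter are near the 18.5% and 13.4% of all genes. In the former the 4 of 10 higher are a larger share than the 12.1% of all genes. The 2 lower are near the 22.9% of all genes, and the median is near their -0.29. Its chaperone Hspa5 had 99.7 and 515 CPM in blood and tendon neutrophil-like cells and 319 and 805 in monocyte/macrophage-like cells, and Dnajb9 had 10.9 and 54.4 in the former and 151 and 2140 UMIs in the latter. Pdia4 (25 and 2 UMIs) and Sdf2l1 (34 and 5) were lower in tendon neutrophil-like cells. In monocyte/macrophage-like cells Xbp1 had 240 and 97.3 CPM and Ddit3 13.6 and 22.3.

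The list of upstream factors, which holds the proteins that switch on immediate early genes, had 3 of 10 higher and 3 lower in neutrophil-like cells (median log2 ratio 0.31) and 1 of 13 higher and 1 lower in monocyte/macrophage-like cells (-0.13). Of all genes 12.1% were higher and 22.9% lower in the former, and the latter counts are no larger than the 18.5% and 13.4% of all genes. Srf, the serum response factor, had 8.20 and 29.9 CPM in blood and tendon neutrophil-like cells and 14.6 and 25.1 in monocyte/macrophage-like cells, and Mkl1, its cofactor, 39.3 and 10.3 and then 35.6 and 14.4. Elk3 had 3.73 and 15.6 in neutrophil-like cells, Mkl2 had 4.37 and 9.63 in monocyte/macrophage-like cells, and Mapk8, the kinase JNK1, had 2.98 and 8.02 in the former and 10.6 and 16.4 in the latter.

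Across the 23 groups the patterns most like each gene's were partly those of the other genes of the set. Among 12355 genes, Egr1 was the nearest to Fosb (Pearson r = 0.93 of log2 levels), Dusp1 to Junb (0.91), Fosb to Jun (0.90), Junb to Dusp1 (0.91) and Atf3 to Fos (0.92). Coq10b was second for both Fosb (0.93) and Junb (0.90), followed by Fosl1 (0.92) and by Sertad1 (0.89). Tubb6 (0.89) and Emp1 (0.88) came next for Fos, and Egr1 (0.89) and Emp1 (0.88) for Jun. Sertad1 (0.93), Fosb (0.93) and Ifrd1 (0.89) were nearest to Egr1, Zfp36 (0.90) and Kdm6b (0.89) followed for Dusp1, and Nr4a1 (0.94), Srxn1 (0.92) and Fos (0.92) were nearest to Atf3.

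Ier2 and the chaperones had other neighbours. Those of Ier2 were Atxn1 (0.83), Eaf1 (0.78) and Zfp142 (0.77), none of them in the set. Those of Hspa1a were Tnfrsf12a (0.95), Emp1 (0.92) and Trim47 (0.91), and those of Hspa1b were Plxna1 (0.95), Akr1b8 (0.93) and Palld (0.92). The groups share 3 libraries, so a gene that differs between the libraries will resemble any other that does.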

How the data were processed

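The deposited gene-by-cell matrices held counts of UMIs per gene and cell. Per the file headers, the authors made them with Cell Ranger 5.0.1, and the submitters' notes name mm10, after 3′ v3 libraries of 10x Genomics. No normalised values were used.

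Cells with under 200 genes or over 20% mitochondrial UMIs were left out (15 marrow, 57 blood and 651 tendon cells), as were those with the highest Scrublet scores at 0.8% per 1000 cells (27, 38 and 198). Scrublet's own threshold marked 11, 31 and 0, so a fixed share was removed in its place. Each library was clustered alone in scanpy 1.11.5 (2000 variable genes, 30 components, 15 neighbours, Leiden resolution 1.0). A cluster took the name of the class whose markers had the highest mean log2 fold over the other clusters (pseudocount 10), by a margin of 0.5 and with at least 3 markers among its 100 leading genes and no other class ahead among its top 10. Of 193 markers, 184 were in the files. This naming rule was settled after clusters had been seen. Clusters left unnamed held 159 marrow and 332 tendon cells. UMIs were summed per class and library.

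The genes and lists were chosen with earlier results of these data known. Text names the 10 genes, per list the 4 genes with the largest ratio of tendon to blood in a class, and per gene the 3 most alike over groups among genes with at least 200 UMIs. GENCODE M21 gave transcripts. Cell shares have Clopper-Pearson intervals. The intervals were tested on counts simulated under the same Poisson model. That check cannot cover spread between cells, mice or libraries. Alternatives covered cell filters, doublets, clustering (with Seurat 5.3.0 integration), naming and scaling.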

Additional observations from a re-analysis of the deposited data

Results flagged for a closer look

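In 2 cases a gene differed in opposite directions between the same libraries in the 2 classes, each beyond its counting interval. The difference between the classes was not tested, since each tissue is 1 library.

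Fos was lower in tendon than blood in neutrophil-like cells (log2 ratio -0.55) and higher in monocyte/macrophage-like cells (2.17). Atf3 was higher in blood than marrow in neutrophil-like cells (4.82, from 27 and 4 UMIs) and lower in monocyte/macrophage-like cells (-0.37). Both patterns depended on the assignment of cells, as given under the processing.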

How the results depend on the processing

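Among 611 recomputed log2 ratios of the 10 genes, 607 kept their direction, of which 132 moved beyond the counting interval of the value reported. Fos in neutrophil-like cells of tendon to blood turned to 0.20 without removal of doublets and to 0.20 with each cell named by its own markers. Atf3 in monocyte/macrophage-like cells of blood to marrow turned to 0.79 with each cell named by its own markers. Ier2 in monocyte/macrophage-like cells of tendon to blood turned to -0.065 after Seurat integration. The cause was not tested.

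The counts of genes at least 2-fold higher stayed within 1.5 times except that the 4 genes higher in blood than marrow monocyte/macrophage-like cells became 7 with median-of-ratios factors. With Seurat integration and with Leiden resolution 0.5, fewer than 20 marrow cells carried that name or none did, and the counts against marrow could not be made.

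Scaling moved the median log2 ratio of all genes in neutrophil-like cells. Leaving the 50 most abundant genes out of the totals took it from -0.29 to -0.46 for tendon to blood, from -0.20 to -0.79 for tendon to marrow and from 0.17 to -0.17 for blood to marrow, and the higher genes from 42% to 22.2% of those called between tendon and marrow and from 65.5% to 44.7% between blood and marrow. With median-of-ratios factors they were 48.5% in place of 34.6% between tendon and blood and 49.7% between blood and marrow, and with equal weight per cell 50.9%. Median-of-ratios factors took the median in monocyte/macrophage-like cells from -0.04 to 0.14 for tendon to marrow and from -0.02 to 0.08 for tendon to blood. Shares of cells with a UMI moved with the thinning depth in 132 of 180 recomputed values. Depth limits Hspa1a and Hspa1b outside the tendon. No paired analysis was possible because each tissue has 1 library and the labels give no replicate numbers.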
